A study of Mus musculus with 8 samples.

Results

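The miR-143 and miR-145 cluster is a pair of hairpin precursors, Mir143 and Mir145a, that lie next to each other in the mouse genome. A miRNA hairpin can yield a mature miRNA of about the same size from each of its arms, named 5p and 3p, so the cluster has 4 possible products: mmu-miR-143-3p, mmu-miR-143-5p, mmu-miR-145a-5p and mmu-miR-145a-3p. These 4 members were chosen by name from the 1966 mature miRNAs listed in the deposited table. Of the 4, 2 had a count in every library (miR-143-3p and miR-145a-5p) and were also the 2 that passed the filter on low counts.

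Mir143 and Mir145a are known as a co-transcribed cluster that is most abundant in smooth muscle cells and fibroblasts, where serum response factor and myocardin drive it. miR-145 has been described as a repressor of Sox9, the transcription factor that sets chondrocyte identity and drives collagen type II and aggrecan, and of Klf4, a factor of undifferentiated cells. miR-143 is known for targets such as Elk1 and for acting together with miR-145 in the contractile state of smooth muscle. The processing of both hairpins by Drosha has been described as enhanced by p53.

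The cells were primary articular chondrocytes, digested from femoral head cartilage of wild-type mice at 3 weeks of age and cultured. The vehicle group (n = 4 libraries) and the IL-1β group (n = 4 libraries, IL-1β at 1 ng/ml) were both collected after 24 h. IL-1β is a proinflammatory cytokine that activates NF-κB, and the comparison asks which miRNAs respond to it in cartilage cells. No sort of the cells was described, the number of mice behind a library was not given, and p-values therefore measure the spread between these libraries, which may be technical. In bulk samples fewer cells of a type and less RNA per cell cannot be told apart.

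Library totals ranged from 616475 to 1568367 counts. Levels are given as normalized CPM, that is, counts relative to the library total after scaling for composition (TMM), and 1 count was worth 0.625 to 1.6 normalized CPM. IL-1β replicate 4 stood apart from the rest: over the 195 miRNAs averaging 50 counts or more, the SD of its log2 deviation from the mean of the other 3 libraries of its group was 0.40, against 0.15 to 0.23 for the other 7 libraries. The tests of the members are therefore also given without it. As a check of the label, the cartilage miRNA miR-140-3p was at 155100 ± 7341 normalized CPM with vehicle and 139700 ± 9302 after IL-1β (SD, n = 4). Of 7 miRNAs typical of striated muscle, 0 had a count in any library, although miR-1a-3p and miR-133a-3p have several loci summed in the table, and 13 of 29 such names were at 0 in every library.

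In the GRCm38 build (GENCODE vM21), Mir143 spans bases 61649196 to 61649258 of chromosome 18 and Mir145a spans 61647825 to 61647894, both on the minus strand. The hairpins are 63 and 70 bp long and 1301 bp apart. GENCODE places both outside any other gene, with the long non-coding RNA gene Carmn (61649625 to 61665537, minus strand) ending 366 bp before Mir143. In RefSeq the span of Carmn (61645878 to 61665538) holds both hairpins. On the opposite strand the long non-coding RNA gene Bvht (61639542 to 61647472) lies 352 bp beyond Mir145a.

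**Figure D1:**
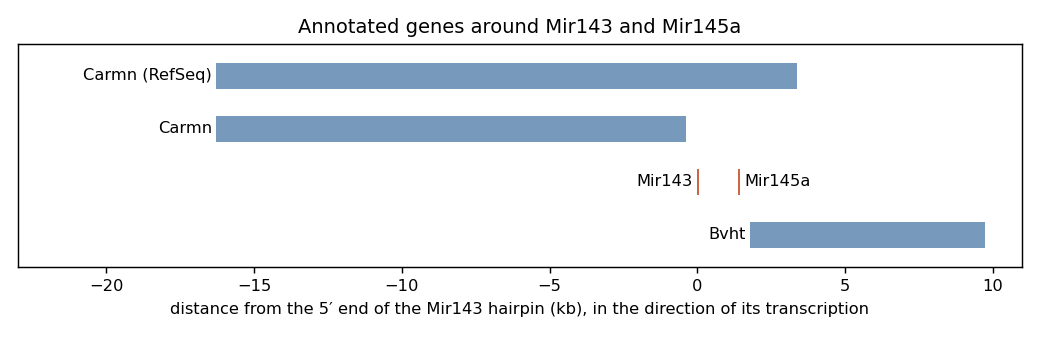
Genes annotated around the cluster, drawn to scale by distance in kb from the 5′ end of the Mir143 hairpin in the direction of its transcription (x axis). Orange bars are the hairpins and blue bars the long non-coding RNA genes Carmn (GENCODE and RefSeq spans) and Bvht, which is on the opposite strand. The RefSeq span of Carmn covers both hairpins, and the GENCODE span ends 366 bp short of Mir143.

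miR-143-3p, the product of the 3p arm, was the most abundant member. In vehicle replicates 1 to 4 it was counted 252, 444, 418 and 169 times, which gave levels of 267, 296, 261 and 263 normalized CPM. After IL-1β the counts were 147, 302, 201 and 296 in the same order of replicates, at 235, 255, 294 and 371 normalized CPM. The groups overlapped: IL-1β replicates 1 and 2 lay below every vehicle library, IL-1β replicate 3 lay among them and IL-1β replicate 4 lay above all of them. The means were 272 ± 16.4 with vehicle and 289 ± 60.1 after IL-1β (SD, n = 4). The log2 fold change was 0.08 (SE 0.119, 95% interval -0.16 to 0.33, edgeR adjusted p = 0.835), so miR-143-3p was not called. On the linear scale this interval runs from 0.894-fold to 1.26-fold.

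The 5p arm of miR-145a, the arm described to act on Sox9, was about an order of magnitude scarcer. miR-145a-5p was counted 27, 44, 36 and 21 times in vehicle replicates 1 to 4, at 28.6, 29.4, 22.5 and 32.7 normalized CPM. With IL-1β it was counted 24, 25, 26 and 13 times, at 38.4, 21.1, 38.0 and 16.3 normalized CPM. Of the IL-1β libraries, replicates 1 and 3 were above every vehicle library and replicates 2 and 4 below every one, so the groups were spread around each other. The means were 28.3 ± 4.26 with vehicle and 28.4 ± 11.4 after IL-1β (SD, n = 4). The log2 fold change was -0.02 (SE 0.250, 95% interval -0.54 to 0.49, edgeR adjusted p = 0.992), an interval of 0.688-fold to 1.41-fold. The ratio of the group means was 1.005, so the means and the fit differed in sign around no change. Changes within that interval were not excluded.

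**Figure D2:**
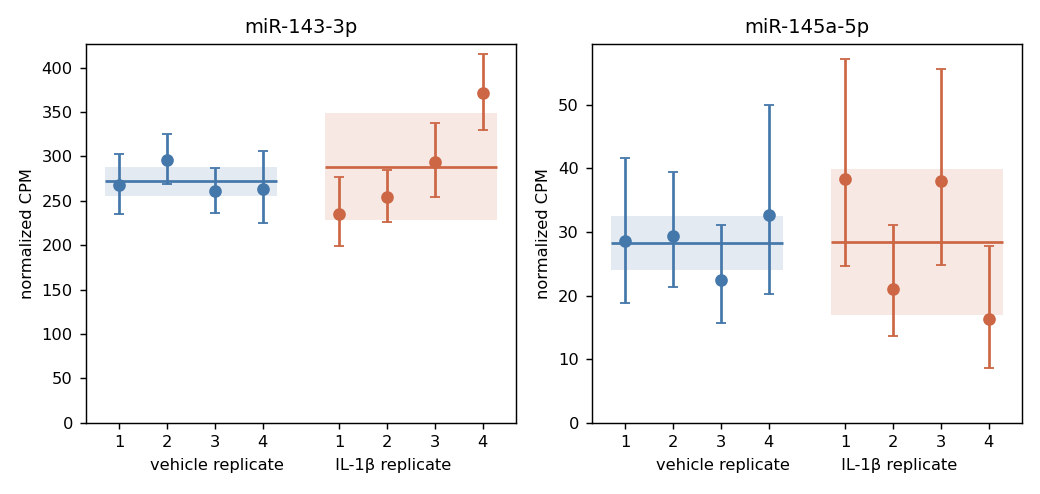
Levels of miR-143-3p (left) and miR-145a-5p (right) in normalized CPM (y axes, from 0) in each vehicle (blue) and IL-1β (orange) library. Points are libraries with exact 95% Poisson intervals of their counts, lines are group means and shaded bands 1 SD on either side (n = 4). In both panels the IL-1β libraries spread to both sides of the vehicle libraries, with replicate 4 highest for miR-143-3p (371) and lowest for miR-145a-5p (16.3).

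Of the 2 tested members, 0 were called (edgeR quasi-likelihood test, adjusted p under 0.05 and absolute log2 fold change over 0.3). Over all 564 miRNAs tested, 1.95% were called, 1.42% as higher after IL-1β and 0.532% as lower, and with so low a share 0 of 2 members says little about the cluster as such. The unadjusted p was 0.490 for miR-143-3p and 0.925 for miR-145a-5p, and 63 of the 564 had an unadjusted p under 0.05. By the size of the log2 fold change, 436 of the 564 had a larger value than miR-143-3p and 517 a larger one than miR-145a-5p. The median absolute log2 fold change of all tested miRNAs was 0.22. Among the 56 tested miRNAs with a mean of 20 to 40 counts, as for miR-145a-5p, the median SE was 0.229 and 0 were called.

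The sign of the log2 fold change turned for both members without IL-1β replicate 4. Without this library miR-143-3p was at 261 ± 29.8 normalized CPM with IL-1β (SD, n = 3), and its log2 fold change was -0.06 (95% interval -0.26 to 0.13, edgeR adjusted p = 0.902). miR-145a-5p was then at 32.5 ± 9.89 (SD, n = 3), and its log2 fold change was 0.15 (95% interval -0.34 to 0.64, edgeR adjusted p = 0.902). The ratio of the miR-145a-5p means was then 1.148, on the same side of 1 as with all 8 libraries. The sign of its log2 fold change also turned without vehicle replicate 2 (0.02), vehicle replicate 4 (0.0024) or IL-1β replicate 2 (0.09). Neither member was called under any of the 16 alternatives, in which the log2 fold change ranged from -0.06 to 0.16 for miR-143-3p and from -0.21 to 0.15 for miR-145a-5p.

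**Figure D3:**
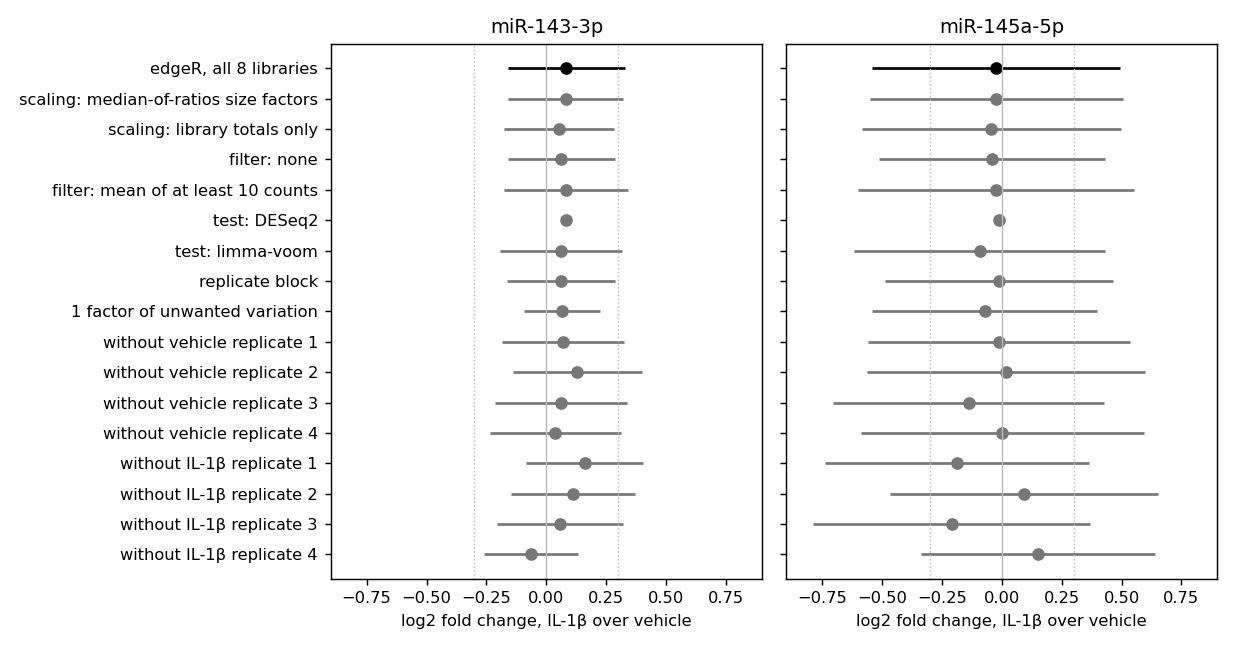
log2 fold change of IL-1β over vehicle (x axes) for miR-143-3p (left) and miR-145a-5p (right) in the edgeR test of all 8 libraries (black) and under each of 16 alternatives (grey), with 95% intervals as horizontal lines (none is drawn for DESeq2). The solid vertical line marks 0 and the dotted lines 0.3 in either direction. All intervals drawn include 0, and leaving out IL-1β replicate 4 moves the points to the other side of 0 in both panels.

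Markers of other cell types were examined beside the members. Of 2 endothelial miRNAs, 1 had counts, 3 in all with vehicle (0 to 1.87 normalized CPM) and 5 with IL-1β (0 to 2.92). Of 5 epithelial miRNAs, 3 had counts, 0 in the vehicle libraries and 7 in all in the IL-1β libraries. Their summed level in the IL-1β libraries was 0.843 to 5.85 normalized CPM, where 0.843 is the worth of 1 count in replicate 2. None of these 3 passed the filter on low counts, so this difference was not tested. Of 6 haematopoietic miRNAs, 2 had counts, with a summed level of 43.5 to 62.5 with vehicle and 25.6 to 45.5 with IL-1β, nearly all of it miR-150-5p, while the defining miR-223-3p, miR-142a-3p and miR-451a were at 0. In the vehicle libraries this haematopoietic sum was above the level of miR-145a-5p, whose highest value in any library was 38.4. The part of these cells in the levels of miR-143-3p and miR-145a-5p was not tested.

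The spread between libraries was numerically larger in the IL-1β group for both members. For miR-143-3p the coefficient of variation was 6.03% with vehicle, next to 5.58% from counting error at the mean count of that group, and 20.8% with IL-1β, next to 6.5%. For miR-145a-5p it was 15.1% with vehicle and 40.2% with IL-1β, next to 17.7% and 21.3% from counting error. Without IL-1β replicate 4 the coefficient of variation of the IL-1β group was 11.4% for miR-143-3p and 30.4% for miR-145a-5p. The difference in spread itself was not tested.

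The opposite arms of the hairpins were almost without counts. miR-143-5p had 1 count in all, in vehicle replicate 3, against 2229 counts of miR-143-3p, a share of 0.0448% of the counts of both arms (exact Clopper-Pearson 95% interval 0.00114% to 0.250%). With IL-1β it had 0 of 946 counts, for which the exact upper bound is 0.389% (3 counts would be 0.317%). miR-145a-3p had 1 count in vehicle replicate 4 and 2 counts in IL-1β replicate 1, against 216 counts of miR-145a-5p, a share of 1.37% (exact interval 0.283% to 3.95%). A count of 0 allows up to 3 counts, which correspond to 1.87 to 4.80 normalized CPM depending on the library, and both opposite arms were under this limit in all 8 libraries, so no fold change is given for either. These intervals cover counting error only. The related miR-145b, encoded elsewhere on the same chromosome, had 0 counts in all 8 libraries.

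Counts of the 4 members were added to describe the cluster as a whole. The sum was 301 ± 17.6 normalized CPM with vehicle and 318 ± 53.2 after IL-1β (SD, n = 4), a difference of 17.0 smaller than the SD of the IL-1β group (p = 0.686, exact two-sided permutation test). The smallest p that 4 against 4 libraries allow is 0.0286. Without IL-1β replicate 4 the difference was -6.14 (exact permutation p = 0.686). The sum followed miR-143-3p, which held most of it in every library.

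The hairpins are known to share a primary transcript, and the levels of their main products were therefore compared with each other. By counts within single libraries, miR-143-3p was 8.05 to 11.6 times as abundant as miR-145a-5p with vehicle and 6.1 to 22.8 times with IL-1β. The highest ratio was that of IL-1β replicate 4. Per nucleotide of listed length (21 nt for miR-143-3p and 23 nt for miR-145a-5p), the ratio of means was 10.5 with vehicle and 11.1 with IL-1β. Counts of whole mature miRNAs do not need this division. Without IL-1β replicate 4 the IL-1β means of miR-143-3p and miR-145a-5p were 261 and 32.5 normalized CPM. The vehicle means were 272 and 28.3, so the ratio of means was then lower with IL-1β than with vehicle. Ligation and amplification favor some sequences over others, so these ratios need not be those of molecules in the cell. Within a library, where the scaling between libraries plays no part, miR-145a-5p made up 9.68%, 9.02%, 7.93% and 11.1% of the counts of the pair in vehicle replicates 1 to 4. In IL-1β replicates 1 to 4 its share was 14.04%, 7.65%, 11.5% and 4.21%. IL-1β replicates 1 and 3 lay above all vehicle libraries, and IL-1β replicates 2 and 4 lay below all of them.

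**Figure D4:**
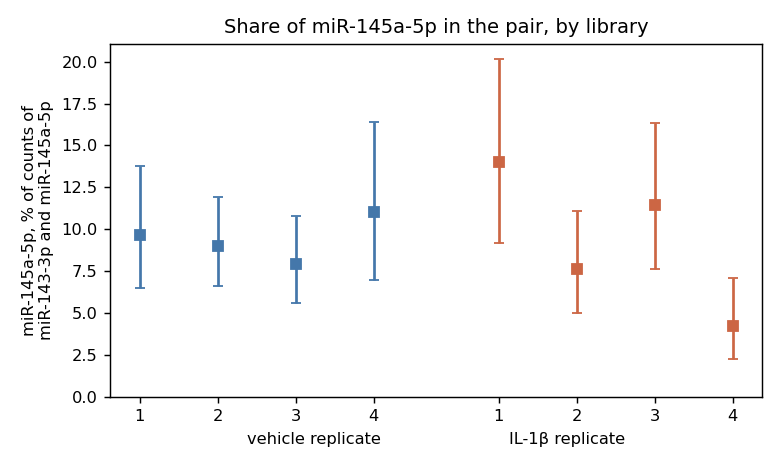
Share of miR-145a-5p in the counts of miR-143-3p and miR-145a-5p (y axis, percent, from 0) in each vehicle (blue) and IL-1β (orange) library, with exact Clopper-Pearson 95% intervals. The intervals cover counting error only. The share is lowest in IL-1β replicate 4 (4.21%) and highest in IL-1β replicate 1 (14.04%).

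Intervals of these shares cover counting error only, and the shares of the IL-1β libraries spread from 4.21% to 14.04%. The mean log2 ratio of miR-143-3p to miR-145a-5p was 3.23 ± 0.23 with vehicle and 3.36 ± 0.81 after IL-1β (SD, n = 4). The difference of 0.12 was within the spread (p = 0.857 in an exact permutation test, 0.857 after Benjamini-Hochberg adjustment over 3 ratios), and without IL-1β replicate 4 it was -0.23 (exact permutation p = 0.400).

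The levels of miR-143-3p and miR-145a-5p were also followed across libraries. Pearson's r of log2(normalized CPM + 1) over the 8 libraries was -0.54 (exact permutation p = 0.196) and Spearman's rho was -0.29 (exact permutation p = 0.501). With each group centered on its own mean r was -0.54 (exact permutation p = 0.176). Without IL-1β replicates 1 and 4, which lay farthest from the median of miR-143-3p, r was 0.69 over 6 libraries (exact permutation p = 0.122), so the negative sign rested on those libraries. Without IL-1β replicate 4 alone, a choice made after the values were seen, r was 0.09 over 7 libraries (exact permutation p = 0.813). None of these values passed 0.05.

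The cluster was next set against miR-140-3p, the hallmark cartilage miRNA, whose host gene Wwp2 is a known target of Sox9. The log2 ratio of miR-143-3p to miR-140-3p was -9.10, -9.11, -9.25 and -9.15 in vehicle replicates 1 to 4. For the IL-1β libraries the same ratio was -9.21, -9.07, -9.01 and -8.44, so that 3 of the 4 IL-1β libraries lay above all vehicle libraries. The difference in means was 0.22 (exact permutation test, two-sided p = 0.229, adjusted over 3 ratios 0.686). It holds the change of both miRNAs, whose edgeR log2 fold changes were -0.15 for miR-140-3p and 0.08 for miR-143-3p, neither of them called. Without IL-1β replicate 1 the difference was 0.31, with the smallest unadjusted p that 4 against 3 libraries allow (exact permutation p = 0.0286). Without IL-1β replicate 4 the groups were 0.05 apart, the smallest difference among the alternatives. The log2 ratio of miR-145a-5p to miR-140-3p was -12.38 ± 0.27 with vehicle and -12.29 ± 0.52 after IL-1β (SD, n = 4), a difference of 0.10 (exact permutation p = 0.771, adjusted 0.857). Without IL-1β replicate 4 this difference was 0.28, and it was negative without vehicle replicate 3 (-0.02), IL-1β replicate 1 (-0.07) or IL-1β replicate 3 (-0.03).

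By mean normalized CPM per nt over the 8 libraries, miR-143-3p ranked 100 and miR-145a-5p 238 among the 987 miRNAs that had a count and a listed length of at most 30 nt. miR-143-3p, at 13.4 normalized CPM per nt (11.2 to 17.7 over the libraries), stood between miR-148a-5p at 13.5 (10.9 to 19.7) and miR-140-5p at 13.3 (10.7 to 15.4). miR-145a-5p, at 1.23 (0.708 to 1.67), stood between miR-193b-5p at 1.27 (0.654 to 1.97) and miR-30c-1-3p at 1.23 (0.873 to 1.66). Each member's range overlapped those of its neighbors, and their order is not fixed. The order also depended on the division by length, which counts of whole mature miRNAs do not need. Undivided, miR-140-5p was at 315 normalized CPM with vehicle and 272 with IL-1β, next to 272 and 289 for miR-143-3p. Likewise miR-193b-5p was at 30.7 and 25.3, next to 28.3 and 28.4 for miR-145a-5p. miR-145a-3p and miR-143-5p held ranks 617 and 962, but with 3 counts and 1 count in all these ranks say little.

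Among the 194 other miRNAs averaging 50 counts or more, those whose log2 level followed miR-143-3p most closely over the 8 libraries were miR-181a-2-3p, miR-191-5p and miR-100-5p. The root mean square difference of their centered log2 levels from those of miR-143-3p was 0.0457, 0.0510 and 0.0529, against a median of 0.234 over all 194. miR-181a-2-3p was also close in level, at 258 normalized CPM with vehicle and 283 with IL-1β (log2 fold change 0.13, edgeR adjusted p = 0.753). None of the 3 was called. This comparison was not repeated without IL-1β replicate 4, where miR-143-3p deviated most from the other libraries of its group (0.51 in log2, next to -0.36 in IL-1β replicate 1). miR-145a-5p had too few counts for this comparison.

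Since miR-145 is one of several miRNAs described to target Sox9, a list of 7 such miRNAs was examined, of which 6 were tested. Of the 6, 0 were called in either direction, against 1.95% of all tested miRNAs, and their median log2 fold change was 0.04, against 0.01 for all 564. The sequences of the 5 other tested miRNAs (RefSeq, GRCm38.p6) are shown to let their seeds be compared, with bases 2 to 8, the seed that pairs with targets, in capitals:
miR-1247-5p: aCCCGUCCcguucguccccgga
miR-30a-5p: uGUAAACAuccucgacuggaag
miR-101a-3p: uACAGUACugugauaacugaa
miR-101b-3p: gUACAGUAcugugauagcu
miR-494-3p: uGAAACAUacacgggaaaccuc

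These 5 sequences carry 5 different seeds. miR-101a-3p and miR-101b-3p are relatives that share a run of 15 bases, which begins at base 1 of miR-101a-3p and at base 2 of miR-101b-3p, so that their listed seeds are offset. Reads of such relatives can be hard to assign.

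miR-30a-5p and miR-1247-5p were the most abundant of the list, with group means above those of miR-143-3p. In single libraries this did not always hold: in IL-1β replicate 3 miR-1247-5p had 199 counts and miR-143-3p 201, and in IL-1β replicate 4 miR-30a-5p and miR-143-3p had 296 counts each. miR-30a-5p was at 370, 378, 339 and 388 normalized CPM in vehicle replicates 1 to 4 and at 398, 392, 357 and 371 in IL-1β replicates 1 to 4, with overlapping groups (log2 fold change 0.04, 95% interval -0.14 to 0.23, edgeR adjusted p = 0.904). miR-1247-5p, a miRNA found in cartilage, was at 381, 338, 361 and 335 with vehicle and at 355, 394, 291 and 406 with IL-1β (log2 fold change 0.04, 95% interval -0.18 to 0.25, edgeR adjusted p = 0.957). Both groups overlapped here too. Of the list, miR-145a-5p thus made up a small part of the counts in every library.

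The largest differences in the list were those of miR-101a-3p and miR-494-3p, which are named here after their values were seen. miR-101a-3p was at 19.1, 24.0, 21.9 and 24.9 normalized CPM with vehicle and at 46.4, 44.7, 26.3 and 17.6 with IL-1β. IL-1β replicates 1 to 3 were above every vehicle library and replicate 4 below every one (log2 fold change 0.61 with an SE of 0.253, adjusted p = 0.299 in edgeR). miR-494-3p was at 6.36, 10.0, 10.6 and 6.23 with vehicle and at 6.40, 3.37, 2.92 and 0 with IL-1β, from 52 counts in all (log2 fold change -1.50 with an SE of 0.516, adjusted p = 0.170 in edgeR). Neither passed the test.

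**Figure D5:**
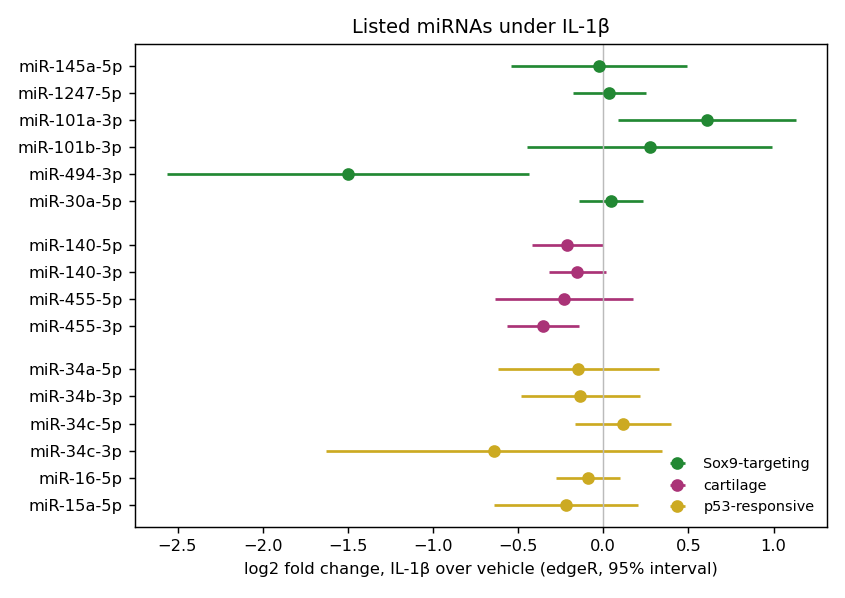
log2 fold change of IL-1β over vehicle (x axis, points with 95% intervals from edgeR) for the tested miRNAs described to target Sox9 (green), of cartilage (purple) and described as p53-responsive (yellow). The point of miR-145a-5p lies at -0.02. None of the miRNAs shown was called, including miR-494-3p (-1.50), whose interval is the widest.

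The cartilage miRNAs miR-140 and miR-455 mark chondrocytes. All 4 of their arms were tested and 0 were called, against 1.95% of all tested miRNAs, and their median log2 fold change was -0.22, against 0.01 for all 564. miR-455-3p, hosted by the collagen gene Col27a1, had a log2 fold change of -0.35 (95% interval -0.57 to -0.14, edgeR adjusted p = 0.0691). For miR-140-3p it was -0.15 and for miR-140-5p -0.21. The summed level of the 4 arms ranged from 153500 to 169000 normalized CPM with vehicle and from 132600 to 155800 with IL-1β.

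Of 8 miRNAs described as p53-responsive in their transcription or processing, 6 were tested and 0 were called, against 1.95% of all tested miRNAs, with a median log2 fold change of -0.14 against 0.01 for all 564. The most abundant were miR-16-5p, at 1114 ± 112 normalized CPM with vehicle and 1048 ± 84.7 after IL-1β (SD, n = 4), a log2 difference of -0.09 (adjusted p = 0.760 in edgeR), and miR-34c-5p, at 107 ± 18.04 and 116 ± 11.6 (SD, n = 4), a log2 difference of 0.12 (adjusted p = 0.794 in edgeR). miR-34b-3p followed at 49.9 ± 6.63 and 44.0 ± 4.98 (SD, n = 4), a log2 difference of -0.13 (adjusted p = 0.807 in edgeR). miR-16-5p comes from several loci that yield one mature sequence. miR-206-3p had 0 counts.

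A list of 11 miRNAs abundant in mesenchymal cells was examined because miR-143 and miR-145 are themselves abundant there. Of these, 9 were tested, 1 was called higher and 0 lower, against 1.42% and 0.532% of all tested miRNAs, with a median log2 fold change of 0.06 against 0.01 for all 564. The miRNA that rose was miR-21a-5p, an inflammation-responsive miRNA, from 355 ± 24.4 to 597 ± 92.9 normalized CPM (SD, n = 4), a log2 difference of 0.75 (adjusted p = 3.58e-05 in edgeR). miR-22-3p was at 13750 ± 732 and 14770 ± 832 (SD, n = 4), a log2 difference of 0.10 (adjusted p = 0.744 in edgeR), and miR-214-3p at 1727 ± 152 and 1573 ± 45.5 (SD, n = 4), a log2 difference of -0.14 (adjusted p = 0.650 in edgeR). miR-199a-5p, expressed from the same transcript as miR-214, was at 1196 ± 114 and 1235 ± 121 (SD, n = 4), a log2 difference of 0.05 (adjusted p = 0.904 in edgeR). The identical miR-199a-3p and miR-199b-3p were listed at 0 in all libraries while miR-199a-5p was not, so an entry at 0 for a sequence with several loci does not show its absence.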

How the data were processed

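The 8 miRNA-seq libraries were grouped by their sample titles. The authors deposited counts per mature miRNA, made by trimming with cutadapt, alignment to mm10 with STAR (version 2.4.2a per the submitters' processing notes, another version in the study's methods) and counting with featureCounts. A correction with RUVseq was described. The deposited values are whole and differ in their totals, which does not show whether they were corrected. They were used as raw counts. The handling of multi-mapping reads was not given in the sources used here.

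Counts were tested with edgeR 4.0.16 (R 4.3.3, quasi-likelihood, robust, TMM, group as the only term) over all miRNAs above 1 CPM in at least 4 libraries, with Benjamini-Hochberg adjustment over all tested miRNAs. The SE is the log2 fold change divided by the square root of F. Single values were compared with exact permutation tests, two-sided. For the ratios 1 was added to each count. Tests between the arms of a hairpin had been planned, but with the opposite arms at 0 in most libraries such ratios follow depth alone, and shares with exact intervals are given instead. Only 1 pair of members had counts in every library, so only 1 correlation was computed. The edgeR fit was tested on simulated counts with known changes and a common dispersion, and recovery was judged for miRNAs averaging 50 counts or more. miR-145a-5p lay below that limit, and no library like IL-1β replicate 4 was simulated. Alternatives were other scalings, filters, DESeq2 1.42.0, limma-voom 3.58.1, a replicate block, 1 factor of unwanted variation and leaving out each library. The members and lists were chosen with earlier results of these data known. Named miRNAs are the 4 members, up to 3 of the most abundant of each list, the 3 most alike to a member with a mean of at least 50 counts, and the neighbors in level. Others are named as chosen after their values were seen or because they were the only call of a list or a marker.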

Additional observations from a re-analysis of the deposited data

How the results depend on the processing

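The call of neither member depended on the processing. The log2 fold change of miR-143-3p turned sign only without IL-1β replicate 4 (-0.06331), in a range of -0.06 to 0.16 over the fits that left out a library. That of miR-145a-5p turned without vehicle replicate 2 (0.01708), vehicle replicate 4 (0.002438), IL-1β replicate 2 (0.09327) or IL-1β replicate 4 (0.1525), in a range of -0.21 to 0.15. Adjusted p-values over the 16 alternatives ranged from 0.670 to 0.946 for miR-143-3p and from 0.840 to 0.998 for miR-145a-5p. The number of miRNAs called over the whole table, 11, was 28 with 1 factor of unwanted variation and 6 to 19 when a library was left out (7 without vehicle replicate 2, 6 without vehicle replicate 4, 7 without IL-1β replicate 3 and 19 without IL-1β replicate 4). With a replicate block it was 19. The log2 fold changes with the replicate block were 0.06 for miR-143-3p and -0.01 for miR-145a-5p. Same-numbered libraries did not deviate together (r of 0.171, -0.345, 0.101 and -0.183 over 195 miRNAs), so the numbers were not treated as pairs.

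For the ratio of miR-143-3p to miR-145a-5p the difference between groups was -0.01769 with medians in place of means and -0.23 to 0.38 when a library was left out. For the ratio to miR-140-3p it was 0.05462 to 0.3117 for miR-143-3p (0.31 without IL-1β replicate 1, exact permutation p = 0.0286). For miR-145a-5p it was -0.07281 to 0.2839, with negative values without vehicle replicate 3 (-0.02293), IL-1β replicate 1 (-0.07281) or IL-1β replicate 3 (-0.02839). The summed level differed by -6.14 to 31.1 normalized CPM. The correlation of the pair was 0.6944 without the libraries farthest from the median and 0.09351 without IL-1β replicate 4. The causes of these shifts were not tested. miR-145a-5p had 13 to 44 counts per library, and the opposite arms had 1 and 3 counts in all.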
